A study of Fragaria x ananassa with 6 samples.

Results

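Among the gene symbols named on the array, 3 stood for enzymes at the lignin, lignan and isoflavonoid ends of phenylpropanoid metabolism, and their transcripts were described in floral buds of cultivated strawberry (Fragaria × ananassa). They were FaCAD1 (cinnamyl alcohol dehydrogenase), FaFenilCBER (phenylcoumaran benzylic ether reductase) and FaIFR1 (isoflavone reductase). They were chosen by these symbols, whatever their values, out of 45 gene symbols and 35116 named features. Control buds came from plants transformed with the empty vector, and FaPRE1-OX buds from plants transformed through Agrobacterium tumefaciens strain AGL0 with pK7WG2-FaPRE1, a construct that overexpresses the PRE-type helix-loop-helix regulator FaPRE1. The labels call the control phenotype normal and that of FaPRE1-OX an elongated floral bud. There were 3 samples per group, paired on 3 two-colour arrays of 60-mer probes called A, B and C. FaPRE1-OX carried Cy3 on arrays A and C and Cy5 on array B, with its control in the other dye. All plants were grown in a chamber and then a greenhouse. The sources used here do not give the age of the buds or whether samples came from separate transgenic lines. The p-values below speak of no more than how far these samples varied, possibly for technical reasons.

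Phenylpropanoid metabolism turns phenylalanine into cinnamic acids and their CoA esters, from which the branches to lignin, lignans, volatile phenylpropenes and flavonoids depart. Cinnamyl alcohol dehydrogenase reduces cinnamaldehydes to the monolignols, the alcohols that are coupled into lignin in stiffened cell walls, and the same alcohols feed the synthesis of eugenol, a volatile of ripe strawberry. Phenylcoumaran benzylic ether reductase and isoflavone reductase belong to one family of NADPH-dependent reductases. The first opens the ether ring of coupled monolignol dimers (neolignans), and the second is known from isoflavonoid synthesis in legumes. Leucoanthocyanidin reductase, which makes flavan-3-ols, is a member of the same family.

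The samples of the series were not equally alike. Over the tested genes, the log2 levels of controls correlated with each other at 0.994 to 0.996 and those of FaPRE1-OX 1 and 2 at 0.996, but FaPRE1-OX 3 correlated with these at 0.959 and 0.957. The FaPRE1-OX over control ratios correlated at 0.963 between arrays A and B, and at 0.653 and 0.616 between array C and these. Array C is given apart from A and B throughout, a split set by the rule that chose the genes. FaPRE1 itself had a log2 level of 6.09 in control 1, 6.64 in control 2 and 6.37 in control 3. With the construct it reached 8.58 in FaPRE1-OX 1, 8.74 in FaPRE1-OX 2 and 8.04 in FaPRE1-OX 3. The probe was well above background in 3 FaPRE1-OX samples but in 1 of 3 controls. It thus passed the filter for testing through FaPRE1-OX, the group where it was higher, and its ratios depend on how background was treated. They were 2.50, 2.10 and 1.67 on the log2 scale on A, B and C, and 5.33, 5.97 and 4.28 from processed signals (those the scanner software corrects itself), with array C lowest by both routes. The model put it 2.09 ± 0.23 (SE) above control, 2.74 with an offset of 16 and 5.39 with processed signals, and for the first of these limma gave an adjusted p of 0.0645 with a dye term and 0.00815 without one. With A and B averaged as 1 replicate and no dye term the adjusted p was 0.0989. Of 8 floral organ symbols looked for, only FaYabby was on the array, at log2 levels of 10.18 to 10.40 in controls and 9.81 to 10.23 in FaPRE1-OX. Of 6 symbols typical of ripe receptacle, 4 (FaRGL1, FaAAT3, Famyb10 and FaNCED3) were well above background in no sample, and 2 (FaQR and FaPLB) were measured. The mean log2 level of these 6 was 7.64 to 7.78 in controls and 7.90 to 8.04 in FaPRE1-OX. The 2 measured symbols differed in direction. The pectate lyase FaPLB had ratios of 2.04, 2.40 and 1.74 on A, B and C, while the quinone oxidoreductase FaQR had -0.63, -0.01 and -0.63, so the list did not move as a whole. The part of any other tissue in the values below was not tested.

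FaCAD1 was the brightest of the 3 probes in control buds and the one whose FaPRE1-OX samples lay farthest apart. Its log2 level, the normalized signal, was 10.43, 10.40 and 10.35 in controls 1, 2 and 3. It was 7.89 and 7.70 in FaPRE1-OX 1 and 2, and 11.89 in FaPRE1-OX 3. The controls thus spanned 0.0866 on the log2 scale while the FaPRE1-OX samples spanned 4.19, and these lay on both sides of all controls, with none among them. In whole buds, fewer cells of a type and less RNA per cell cannot be told apart. Means were 10.39 ± 0.04 (SD, n = 3) and 9.16 ± 2.37 (SD, n = 3). Among the 35115 features with a level the FaCAD1 signal ranked at percentile 86.8 to 86.9 in controls, 62.8 and 60.2 in FaPRE1-OX 1 and 2, and 94.9 in FaPRE1-OX 3.

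**Figure D1:**
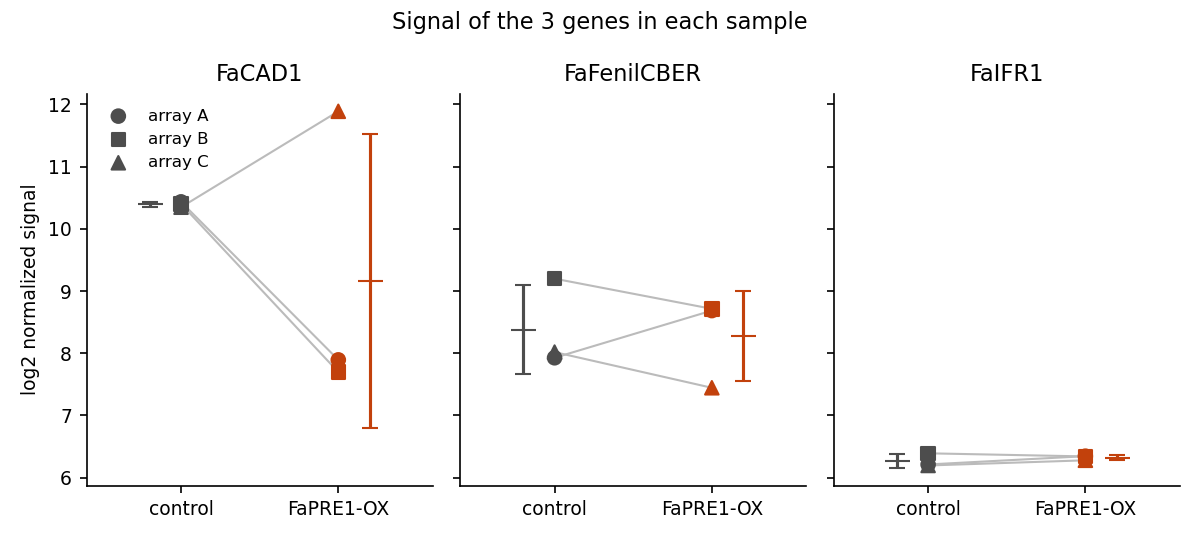
Log2 normalized signal (vertical axis) of FaCAD1, FaFenilCBER and FaIFR1 in control and FaPRE1-OX buds, with grey lines joining the 2 samples of an array and bars giving the mean ± SD of 3 samples. FaCAD1 was below its control on arrays A and B (7.89 and 7.70) and above it on array C (11.89), and FaIFR1 stayed between 6.19 and 6.39.

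On the arrays themselves, FaCAD1 in FaPRE1-OX was below control by log2 ratios of -2.54 on A and -2.70 on B, and above control by 1.54 on C. The mean of A and B was -2.62, or 6.16-fold lower, and array C was 2.91-fold higher. With median centring in place of loess normalization the ratios were -2.92, -2.01 and 0.96 on A, B and C, of the same signs. Each of the 2 spots of the probe gave the direction of its array. The spot ratios were -2.65 and -2.43 on A, -2.65 and -2.76 on B, and 1.51 and 1.57 on C. Before normalization, the spots of FaPRE1-OX 3 stood 2091.5 and 2802 intensity units above their local background in Cy3, against 136 and 147 in FaPRE1-OX 1 in the same dye. The same probe gave 1211 and 1586 units in control 3 and 2139 and 1920.5 in control 1, both in Cy5. All 12 readings (2 spots in 6 samples) were well above background, 4.03 to 74.7 times their local background, and 0 were flagged as non-uniform or outlying.

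**Figure D2:**
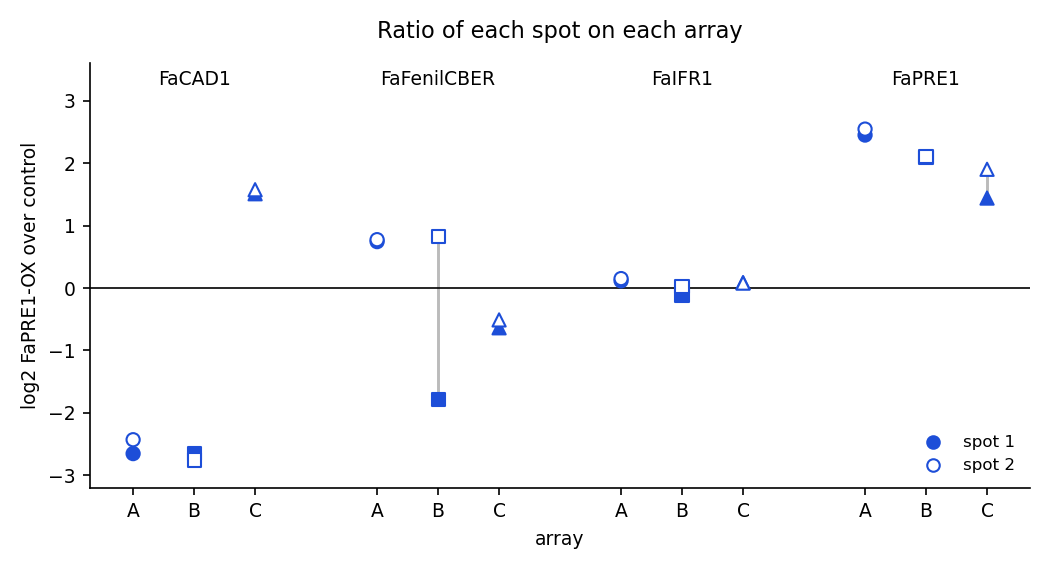
Log2 ratio of FaPRE1-OX over control (vertical axis) for each of the 2 spots of a probe on arrays A, B and C, with FaPRE1 as the check of the construct. The spots of FaCAD1 shared a sign on every array, at -2.65 and -2.43 on array A and 1.51 and 1.57 on array C. The spots of FaFenilCBER on array B lay at -1.79 and 0.82.

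For FaCAD1 the model gave -1.60 ± 0.98 (SE) on the log2 scale, with a 95% interval of -4.56 to 1.36 and an adjusted p of 0.359 in limma with the dye term. Without the dye term it was -1.23 ± 0.95, with an adjusted p of 0.389. It passed 0.05 in neither fit. With the dye term 0 of 23381 tested genes (0%) were called by limma, against 6763 at an unadjusted p under 0.05, and without it 5292 (22.6%) were called. With A and B averaged as 1 replicate and no dye term, 0 genes were called and FaCAD1 had an adjusted p of 0.819. The call turned with array C. With array C and the dye term both left out, arrays A and B alone gave -2.62 with an adjusted p of 5.36e-11 in limma, a setting in which 13927 genes were called. The sources used here do not give whether the samples of A and B came from separate lines.

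The reversal of FaCAD1 on array C can be set against the whole array. Arrays A and B had one sign and array C the other in 5585 of 23381 tested genes (23.9%), and FaCAD1 was one of these. A ratio below -1 on A and B together with one above 1 on C was found in 28 genes (0.12%), FaCAD1 among them. With median centring its ratio on C, 0.96, lay just short of that limit. Array C lay 4.16 on the log2 scale from the mean of A and B for FaCAD1, and at least as far for 6 genes (0.0257%), FaCAD1 included. The median of that distance was 0.25 over all tested genes. These counts describe the same 3 pairs of samples and carry no test.

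FaFenilCBER was of middle level and was detected in every sample, with 12 of 12 readings well above background at 2.46 to 20.5 times the local background. The controls had log2 levels of 7.93, 9.20 and 8.02 for samples 1, 2 and 3. The matching FaPRE1-OX samples had 8.69, 8.71 and 7.44. The groups overlapped, with control 2 above all FaPRE1-OX samples and the other controls between FaPRE1-OX 3 and the rest. The 9.20 of control 2 averages 2 spots that disagreed, at 973 and 105 intensity units above local background. The place and percentile of control 2, and the control mean and SD, rest on that average. Means were 8.38 ± 0.71 (SD, n = 3) and 8.28 ± 0.72 (SD, n = 3), at percentiles of 62.0 to 76.4 and 56.1 to 72.4 among the features. The array ratios were 0.76 on A, -0.48 on B and -0.57 on C. The fitted value was -0.20 ± 0.34 (SE), with a 95% interval of -1.21 to 0.82 and an adjusted p of 0.731 in limma with the dye term (0.830 without it). The interval leaves room for a difference of either sign.

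The value of FaFenilCBER on array B rested on spots that disagreed. Spot 1 gave a log2 ratio of -1.79 and spot 2 one of 0.82. On array A the spots gave 0.74 and 0.77, and on array C -0.64 and -0.51. The gap on array B was 2.61, and only 5 of the 15149 duplicated probes detected there had a gap at least as wide (0.033%, FaFenilCBER included), against a median gap of 0.09. The gap lay in the control channel. In control 2 (Cy3) the spots stood 973 and 105 units above local background, whereas in FaPRE1-OX 2 (Cy5) they stood at 606.5 and 519.5. The spots of the other samples differed less, at 354 and 249 in FaPRE1-OX 1 in Cy3, at 334 and 211 in control 1 and 222.5 and 162 in control 3. Neither spot was flagged by the scanner software.

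With spot 1 of array B left out, an alternative chosen after the values were seen, the ratios were 0.76 on A, 0.82 on B and -0.57 on C. Arrays A and B then had one sign and array C the other, as for FaCAD1 but in the opposite direction. The mean of A and B was 0.79, or 1.73-fold higher. The fitted difference became 0.46, with an adjusted p of 0.433 in limma. With spot 2 left out it was -0.85, with an adjusted p of 0.217. With both spots kept and median centring in place of loess, the ratios were 0.47, 0.17 and -0.79 on A, B and C, and the fitted value was 0.0083. The sign of FaFenilCBER on array B and of its fitted difference therefore varied with the spot kept and with the normalization, and in none of these settings did it pass 0.05.

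The surroundings of the spots on the array were compared as well. For each spot well above background in both channels of A and B, the ratio on array A was subtracted from that on array B. This value was -2.53 at spot 1 of FaFenilCBER and 0.04 at spot 2, against an SD of 0.23 over 36086 spots. Of 48 spots within 4 rows and 4 columns of spot 1, the 2 directly above and below it in its column had -0.76 and -0.71, and the other 46 ran from -0.35 to 0.70. Around spot 2, the 44 neighbours ran from -0.28 to 0.66. The window was set after the spots were seen, and whether the area around spot 1 was disturbed was not tested.

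**Figure D3:**
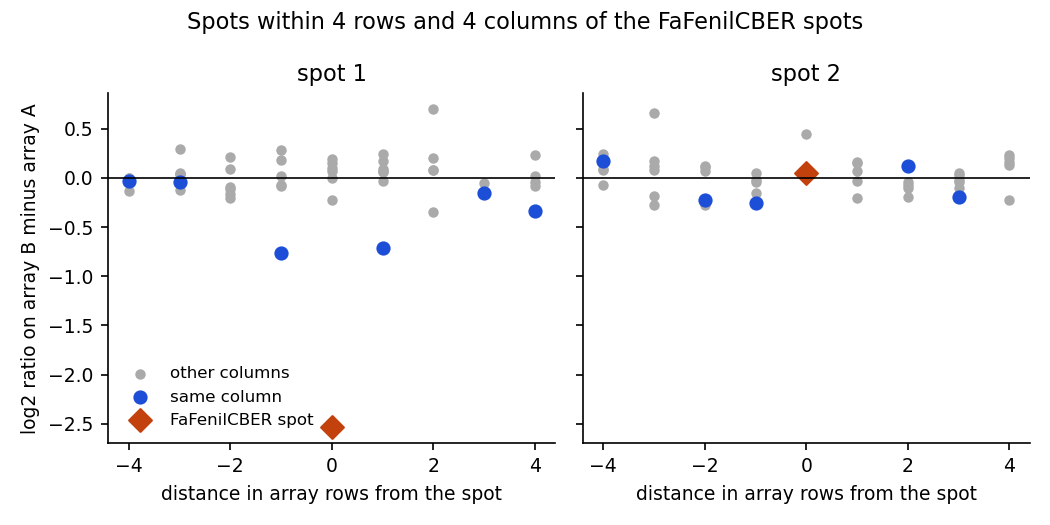
Difference of the log2 ratio between arrays B and A (vertical axis) for spots within 4 rows and 4 columns of each FaFenilCBER spot, by distance in rows (horizontal axis), with spots of the same column in blue. Spot 1 lay at -2.53 and its nearest neighbours in the column at -0.76 and -0.71, while spot 2 lay at 0.04 among its neighbours.

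FaIFR1 had 0 of 12 readings well above background and was not tested. Its log2 levels were 6.21, 6.39 and 6.19 for controls 1, 2 and 3, and 6.34, 6.34 and 6.28 for the matching FaPRE1-OX samples, at percentiles of 16.4 to 31.0 in controls and 23.0 to 28.7 in FaPRE1-OX. The levels of the groups overlapped. The array ratios were 0.13, -0.05 and 0.08, and since both channels lay near background no fold is given. The spots stood between -4 and 21 intensity units from their local background, or 0.951 to 1.51 times it. In control 1 they stood at -3 and -4 units and in control 3 at 2.5 and 0.5 units, which is at local background. The negative control spots of these channels had medians of -16.75 and -6 units. The software called 10 of the 12 readings positive and significant, and each stood above 86.0% to 99.0% of the 308 negative control spots of its own channel. In control 2 and FaPRE1-OX 2, both on array B, both spots lay above the 95th percentile of the negative controls (13.3 and 3.83 units). In FaPRE1-OX 1 one spot (13 units) lay just above it (12.8) and one below, and in the remaining samples both lay at or below it. A probe with no spot well above background in any sample was common on this array (8846 of 35337 probes, 25.0%).

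**Figure D4:**
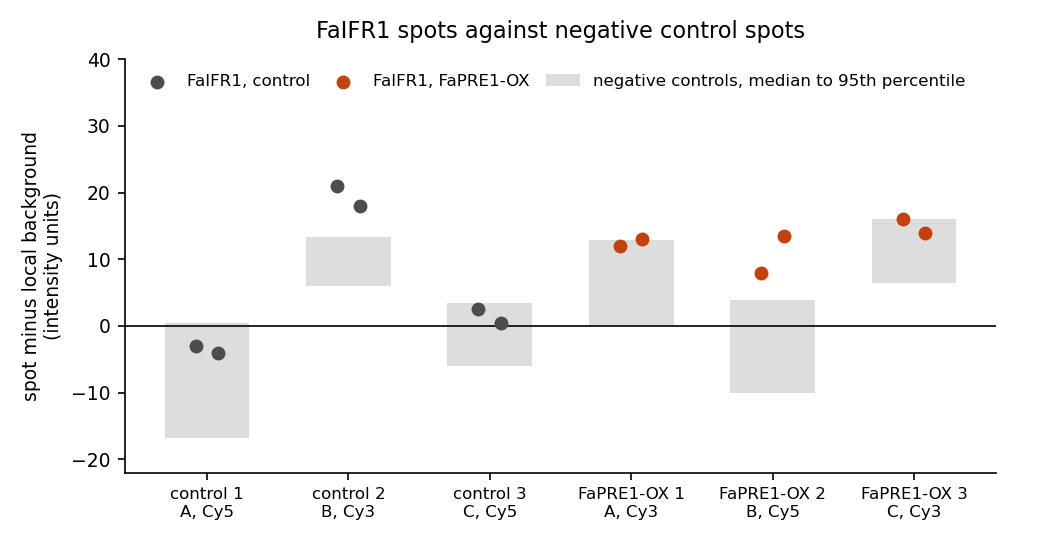
Spot signal minus local background (vertical axis, intensity units) of the 2 FaIFR1 spots in each sample, with grey bars from the median to the 95th percentile of the 308 negative control spots of the same channel. The points ran from -4 to 21 units, and only on array B did both spots lie above the bar in each channel.

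The genes did not share one pattern. In control buds the order of levels was FaCAD1 (10.35 to 10.43), FaFenilCBER (7.93 to 9.20) and FaIFR1 (6.19 to 6.39), with no overlap between neighbours in that order. The probes differ in sequence, so this is an order of signals and not of transcript amounts. The 9.20 of FaFenilCBER, from control 2, averages the spots of array B that disagreed. In FaPRE1-OX 1 and 2 the order of the first pair was turned, with FaFenilCBER at 8.69 and 8.71 and FaCAD1 at 7.89 and 7.70. In FaPRE1-OX 3 it was that of the controls, with the pair at 7.44 and 11.89. Neither of the 2 tested genes was called with or without the dye term, beside a share over all tested genes of 0% and 22.6%.

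The symbols whose level profile was most like that of each gene were found by the root mean square difference over the 6 samples, after centring each profile on its mean, among 35 other tested symbols. For FaCAD1 these were Famalonyltransf at 0.65, FaGalur at 0.96 and FaNAC1 at 0.98, where a flat profile would lie at 1.50. Famalonyltransf stands for a malonyltransferase, an enzyme that adds malonyl groups to flavonoid glucosides. FaGalur stands for D-galacturonate reductase of ascorbate synthesis, and FaNAC1 for a NAC transcription factor. Famalonyltransf had ratios close to those of FaCAD1 on A and B (-2.52 and -2.60) but stayed below control on C (-0.30). FaGalur had -2.01, -1.94 and -0.74. FaNAC1 had -1.14, -1.21 and 0.26, and was the one of the 3 whose sign turned on C as that of FaCAD1 did. For FaFenilCBER the nearest symbols were FaDof, a Dof-type transcription factor, at 0.54, FaYabby, a lateral organ gene, at 0.55 and FaEF1, an elongation factor, at 0.57, hardly nearer than a flat profile at 0.59. The samples share arrays and dyes, so the likeness is a description. FaFenilCBER itself ranked 32 of 35 in likeness to FaCAD1, at 1.92. The FaFenilCBER profile used here averages the spots of array B that disagreed. Its likeness to other symbols with either spot alone was not computed.

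The other branch symbols of phenylpropanoid and flavonoid metabolism numbered 14, of which 12 were tested, 6 with a fitted difference above 0 and 6 below. By limma with the dye term 0 of 12 were called, and without it 4 of 12, beside 22.6% of all tested genes. The median difference was -0.05, against -0.02 over all tested genes. The 4 were the dihydroflavonol reductases FaDFR1 and FaDFR1C and the leucoanthocyanidin reductase FaLAR, which were higher in FaPRE1-OX, and FaGST1, a glutathione transferase, which was lower. FaGST1 was well above background in 3 controls and 0 FaPRE1-OX samples, so it passed the filter only through the controls, the group where it was higher. Without it 3 of 11 symbols were called. All calls without the dye term were lost with A and B averaged as 1 replicate. Each of the 4 had one sign on all 3 arrays, with ratios of 1.46, 1.30 and 2.38 on A, B and C for FaDFR1C. One sign on all 3 arrays was common, in 8 of the 12 symbols and in 14172 of 23381 tested genes. A call without the dye term also favours ratios that agree, so the shared sign of the 4 adds no support. FaLAR, of the same enzyme family as FaFenilCBER and FaIFR1, had log2 levels of 13.18 to 13.30 in controls and 13.65 to 13.71 in FaPRE1-OX. Its ratios were 0.40, 0.38 and 0.53, with a difference of 0.42 ± 0.11 (SE) and an adjusted p of 0.139 in limma with the dye term and 0.0325 without it. The family thus held a probe with a small shift of one sign on every array (FaLAR), one whose sign varied (FaFenilCBER) and one near background (FaIFR1). Probe sequences were not used here, so hybridization of one probe with transcripts of another member was not tested.

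**Figure D5:**
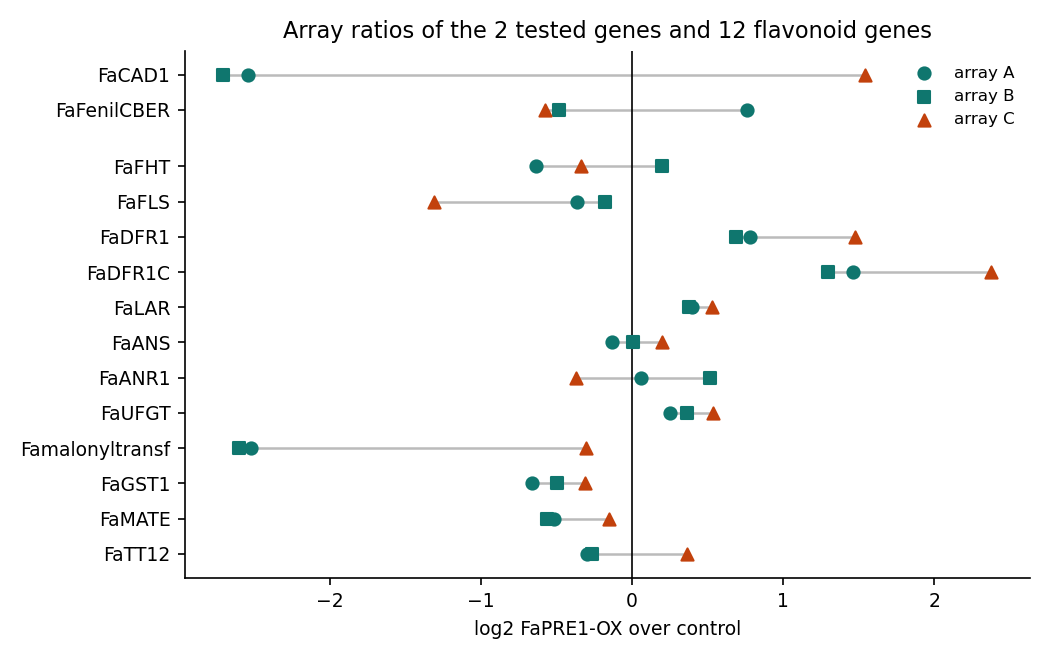
Log2 ratio of FaPRE1-OX over control (horizontal axis) on arrays A, B and C for FaCAD1, FaFenilCBER and the 12 tested flavonoid symbols. FaCAD1 had the widest spread, from -2.70 on array B to 1.54 on array C, and Famalonyltransf had values near it on A and B but not on C.

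Array C and arrays A and B had opposite signs in 2 of the 12 flavonoid symbols (16.7%), the anthocyanidin reductase FaANR1 and the transporter FaTT12, beside 23.9% of all tested genes. The ratios of FaANR1 were 0.06 and 0.51 on A and B and -0.37 on C. Those of FaTT12 were -0.30, -0.26 and 0.37. The median distance of array C from the mean of A and B was 0.52 in the list and 0.25 over all tested genes. The distance was 4.16 for FaCAD1 and 0.71 for FaFenilCBER with both spots of array B kept. For FaFenilCBER, array C minus that mean was -0.06 with spot 1 of array B alone and -1.36 with spot 2 alone.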

How the data were processed

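Total RNA of floral buds, from 3 control samples and 3 of FaPRE1-OX, was hybridised in pairs on 3 two-colour arrays. Groups, arrays and dyes came from the labels. The overexpression titles contain PRE3, but all remaining labels name FaPRE1, which was followed. The authors deposited scanner output, in which spot, background and processed signals are linear intensity values, made with Agilent Feature Extraction (10.7 in the submitters' processing notes, 10.7.3.1 in the headers). Other columns deposited by the authors are flags of detection, saturation and spot quality. Over samples, the median spot intensity was 92.5 to 173.5, median background from 42 to 83, and the share of spots well above background from 57.7% to 67.4%, with 0 saturated spots. The number of arrays limits the precision. The headers give 1 slide and 1 scan time, so neither could be tested as a batch.

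With limma 3.58.1 (R 4.3.3, statmod 1.5.0), median intensities were background corrected by normexp (offset 50, which shrinks ratios of dim probes) and normalized by loess within each array. Control spots and flagged spots had weight 0, and 4 spots per array with no name were removed. The spots of a probe were averaged, then the probes of a feature. Each of the described genes had 1 probe in 2 spots per array. A gene was tested if at least 0.5 of a probe's spots were well above background in 3 or more samples and each array gave a ratio, which left 23381 genes. The log2 ratio of FaPRE1-OX over control was fitted with lmFit and eBayes with a dye term, two-sided, with Benjamini-Hochberg adjustment over all tested genes and a threshold of 0.05. With 1 residual degree of freedom, array B weighs as much in the fitted difference as A and C together. Without the dye term 2 residual degrees of freedom remain. Sample levels are log2 signals from the loess ratios, with average intensities quantile normalized between arrays. Both fits had been checked with simulated data for the size of the changes they return. A limit on the share of unchanged genes with a low p was set for the fit with the dye term, not for the one without. Noise was drawn separately for each simulated array, so a likeness such as that of A and B was not covered.

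Replicate numbers stand for a shared array according to the labels, so the ratio holds the pairing. Samples of one array deviated from their group means with correlations of 0.167, 0.179 and 0.137, and samples of different arrays with -0.195 to 0.07. Deviations from a group mean cancel within the group, which ties these sets of correlations to each other. They are therefore no test of the pairing.

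The genes and lists were chosen with earlier results of these data known. Named genes were the 3 genes, FaPRE1, the 3 nearest symbols to each tested gene, a list of 14 flavonoid symbols and the marker lists. Flavonoid genes printed with their values beyond these counts were chosen after the values were seen. Of the 3 genes, 0 were found in the reference gene table, which holds another assembly, so no position or sequence is given. Alternatives changed the dye term, pairing, background correction, normalization, filter, flagged spots and replicates.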

Additional observations from a re-analysis of the deposited data

How the results depend on the processing

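FaCAD1 stayed below 0 in all 14 alternatives, at -2.62 to -0.50, with adjusted p of 5.36e-11 to 0.827, and passed 0.05 in 1 of them, without replicate 3 and the dye term. FaFenilCBER was below 0 in 13 and above 0 in 5 of 18 alternatives, with adjusted p of 0.210 to 0.987. It was 0.0083 with median centring, -0.53 to 0.14 over the settings that leave out 1 replicate (0.0925 without replicate 2), 0.46 with spot 1 of array B left out and 0.33 with that spot and the dye term left out. These spot settings were chosen after the data were seen. FaIFR1, near background, was 0.03 in the dye-term model and 0.24 with processed signals. Without the filter it could be tested, with an adjusted p of 0.885. FaPRE1 passed 0.05 in 8 of 13 alternatives, with adjusted p of 8.48e-10 to 0.113. It was 2.09 for each of 3 settings (dye term removed, no replicate block, and the replicate block made a random effect), 2.74 at offset 16, 5.39 from processed signals, 2.25 with median centring, 2.05 with scaling between arrays and 1.88 to 2.30 without 1 replicate. It could not be fitted among probes detected in all 6 samples.

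The number of genes called was 0 with the dye term, 5292 without it, 4261 with no replicate block, 5780 where the replicate block was random, 900 at offset 16, 1432 from processed signals, 1107 with median centring, 1204 with scaling between arrays, 0 with A and B averaged as 1 replicate and no dye term, and 0 to 13927 without 1 replicate, the highest without replicate 3. The settings that leave out 1 replicate also drop the dye term, so 2 choices change at once. The paired and unpaired fits changed no call of FaCAD1 or FaFenilCBER. The cause of these shifts was not tested. FaIFR1 is limited by signal over background, FaCAD1 by the spread of the FaPRE1-OX samples and FaFenilCBER on array B by its spots.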
